A study of Homo sapiens with 6 samples.

Results

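The 49 genes described here encode the respiratory chain of human mitochondria: the 13 proteins made from mitochondrial DNA, 33 nuclear-encoded subunits and 3 nuclear genes for the expression of mitochondrial DNA (TFAM, POLRMT and TWNK). They were taken as a fixed list of gene symbols and matched by name, 49 of 35052 genes in the gene table. All 49 passed the filter on low counts and were tested. Polyadenylated RNA was sequenced from 3 libraries of EoL-1 cells labelled ATF3/JUN double knockout and 3 labelled JUN knockout. EoL-1 is an established line from a human eosinophilic leukaemia, and JUN and ATF3 belong to a family of leucine zipper proteins that bind DNA in pairs and regulate transcription. By the labels, every library is from JUN knockout cells and the double knockout libraries are from cells with an ATF3 knockout in addition, so the comparison addressed loss of ATF3 on a JUN-deficient background. The labels name CRISPR/Cas9 for the ATF3 knockout and no clone or guide, and no unedited library was analysed here. In the names of the deposited files, same-numbered libraries of both genotypes share a clone code, which the labels do not explain. Whether the libraries of a genotype came from separate clones or cultures is not in the labels. The p-values therefore reflect the spread among these 3 and 3 libraries alone, which may be technical.

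The respiratory chain sits in the inner mitochondrial membrane. Complexes I and II pass electrons to ubiquinone, complex III passes them on to cytochrome c, complex IV reduces oxygen, and complex V uses the resulting proton gradient to make ATP. Complex II is wholly nuclear-encoded, while the other complexes combine subunits of both genomes. Mitochondrial DNA is transcribed by the polymerase POLRMT with the help of TFAM, which also packages the DNA, and TWNK is the helicase of its replication. The transcripts of each strand are long and are then cut into individual mRNAs, most of them released where a tRNA is excised.

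The compact layout of the mitochondrial genome bears on how its reads can be assigned, and the stretches below show why. In the first pair the reading frames of neighbouring genes on the plus strand overlap, and capitals mark the bases that both genes share (GRCh38, from GENCODE release 29).
MT-ATP8 into MT-ATP6, chrM:8507-8592: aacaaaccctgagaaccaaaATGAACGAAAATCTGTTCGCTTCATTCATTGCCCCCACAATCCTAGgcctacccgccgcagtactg
MT-ND4L into MT-ND4, chrM:10740-10786: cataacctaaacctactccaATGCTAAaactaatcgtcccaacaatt
MT-ATP8 and MT-ATP6 shared 46 bases, MT-ND4L and MT-ND4 shared 7, and MT-ATP6 and MT-CO3 shared 1. MT-ATP8 and MT-ATP6 are carried on a joint mRNA, and so are MT-ND4L and MT-ND4, so the split of reads between these partners is uncertain, most of all for the short MT-ATP8 and MT-ND4L.

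The ends of the mitochondrial mRNAs differ in a second way. In the next set, capitals mark the last codon or what the genome encodes of it, shown because the polyA tail, on which the library selection relied, completes the stop codon of several of these mRNAs.
MT-CO3 end, plus strand, chrM:9973-9990: tctattgatgagggtctT
MT-ND4 end, plus strand, chrM:12120-12137: ttaccgggttttcctctT
MT-CO1 end, plus strand, chrM:7428-7445: gtatacataaaatctAGA
MT-ND6 end, minus strand, chrM:14149-14166: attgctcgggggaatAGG
The annotated sequence of 6 of the 13 ended in an incomplete codon: TA in MT-ND1, and T in MT-ND2, MT-CO3, MT-ND3, MT-ND4 and MT-CYB. MT-CO1 ended in AGA and MT-ND6 in AGG, triplets that do not encode arginine in human mitochondria. MT-ND6 is the gene of this set read from the minus strand. It adjoins MT-ND5 on the other strand, and whether the counting used strand is not given in the sources used here, so reads of MT-ND6 and of RNA antisense to it cannot be told apart.

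The 6 libraries held 26146998 to 29567970 estimated reads. Levels are given as CPM, read counts scaled to a common library total, unless TPM is named, which is the deposited abundance per effective transcript length. ATF3 mRNA was at 13.1, 10.0 and 7.63 CPM in double knockout libraries 1 to 3, against 20.2, 13.7 and 8.89 CPM in JUN knockout libraries 1 to 3. JUN mRNA was at 13.8, 16.6 and 25.7 CPM in the double knockout, against 13.2, 27.2 and 24.6 CPM in the JUN knockout. An edited gene can keep its mRNA, so these levels did not check the edits. The labelled cell type is eosinophil, and 2 of 10 eosinophil markers reached 1 CPM, the granule ribonucleases RNASE2 and RNASE3, while EPX, PRG3, CLC, IL5RA and GATA1 had no reads. The summed eosinophil markers lay between 62.8 and 105 CPM in the double knockout and between 36.1 and 111 CPM in the JUN knockout. Markers of T cells (0 of 3) and of erythroid cells (0 of 3) did not reach 1 CPM, while 4 of 6 neutrophil and 1 of 4 B cell markers did. In bulk RNA, fewer cells of a kind and less RNA per cell cannot be told apart.

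No respiratory chain gene passed the test between the genotypes. With edgeR's quasi-likelihood test and an adjusted p below 0.05, 0 of the 49 genes were called, as against 0% of all 12954 genes tested. Adjusted p-values of the 49 lay between 0.854 and 0.999 with edgeR, and 1 of the 49 had an unadjusted p below 0.05, against a share of 5.81% of all genes. DESeq2 called 0.548% of 12949 genes and limma-voom 0.0309% of 12954, in both cases with 0 of the 49 among them. The direction was nevertheless lopsided: the log2 fold change, double knockout minus JUN knockout, was below 0 for 38 of the 49, against 49.3% of all genes tested. These genes share their libraries and move together from library to library, as shown further on, so this count is not 49 separate observations.

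Shares are of the reads matched to genes. The 13 mitochondrially encoded genes supplied 4.50%, 4.68% and 5.69% of these in double knockout libraries 1 to 3, against 4.36%, 6.03% and 6.16% in JUN knockout libraries 1 to 3. The 33 nuclear subunit genes together supplied far fewer, at 0.531%, 0.524% and 0.571% in the double knockout, against 0.517%, 0.593% and 0.599% in the JUN knockout. JUN knockout 1 was the lowest library in both sums, and the other JUN knockout libraries were the highest, so the genotypes overlapped. The mean nuclear share was 0.542% ± 0.0250 in the double knockout and 0.570% ± 0.0458 in the JUN knockout (SD, n = 3 each). The number of mitochondrially encoded reads per nuclear subunit read was 8.47, 8.93 and 9.97 in the double knockout, against 8.44, 10.2 and 10.3 in the JUN knockout. Over the 6 libraries the mitochondrial share spanned a factor of 1.41 and the nuclear share one of 1.16. The 85 cytosolic ribosomal protein genes, a large nuclear set outside the respiratory chain, spanned a factor of 1.09 and were at 10.9%, 10.3% and 11.0% in the double knockout, against 10.1%, 10.3% and 10.5% in the JUN knockout.

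**Figure D1:**
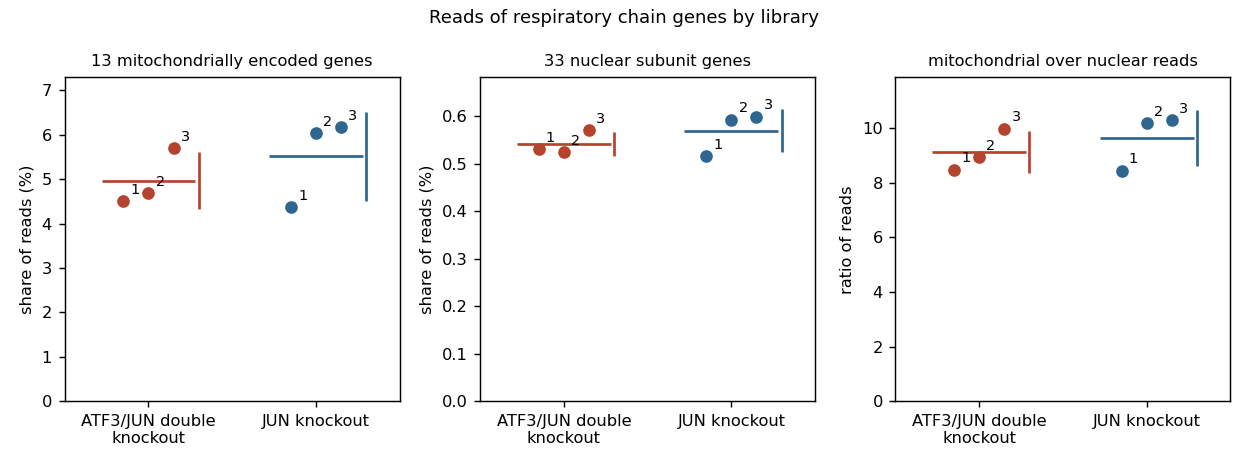
Share of the reads matched to genes (%) from the 13 mitochondrially encoded genes (left) and from the 33 nuclear subunit genes (middle), and the ratio of these reads (right), for each numbered library of the ATF3/JUN double knockout and the JUN knockout. Horizontal lines are means and vertical lines ± SD (n = 3 each); JUN knockout 1 is the lowest library in all 3 panels, and the genotypes overlap in each.

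The ratio of the genomes was not alike in every complex. In complex I it was 14.4, 15.8 and 17.9 mitochondrial reads per nuclear subunit read in the double knockout, against 14.6, 18.7 and 18.9 in the JUN knockout. Complex V, with MT-ATP6 and MT-ATP8 as its mitochondrial members, gave 2.26, 2.29 and 2.73 in the double knockout, against 2.18, 2.79 and 2.95 in the JUN knockout. Both ratios thus varied over libraries in the manner of the total. In complex IV the ratio was steadier, at 25.3, 27.3 and 28.2 in the double knockout, against 25.2, 27.2 and 27.2 in the JUN knockout, a span of 1.12-fold, beside spans of 1.40-fold for the share of its mitochondrial genes and 1.30-fold for that of its nuclear ones. Complex III, with MT-CYB as its single mitochondrial member, gave 1.70, 1.64 and 2.05 in the double knockout, against 1.99, 1.88 and 2.08 in the JUN knockout. The genotypes overlapped in all of these ratios.

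In this polyA-selected RNA, the mitochondrial mRNAs of complex IV had the highest levels per kilobase. MT-CO1, the catalytic core of cytochrome c oxidase, supplied 29.6% of the mitochondrially encoded reads on average over the 6 libraries. MT-ND4 followed with 15.2%, MT-CO2 with 12.4% and MT-CO3 with 10.9%. At the other end, MT-ND6 supplied 0.160%. Per kilobase of transcript, MT-CO1 averaged 10046 CPM, MT-CO2 9521 CPM, MT-CO3 7315 CPM, MT-ATP6 6015 CPM and MT-ND4 5811 CPM. A second tier held MT-ND2 at 3504 CPM per kilobase, MT-ATP8 at 3406, MT-ND4L at 3258 and MT-ND1 at 2394. MT-ND3 with 1900 CPM per kilobase, MT-CYB with 1887 and MT-ND5 with 1180 came next, and MT-ND6 was last with 162. MT-CO1 was above MT-CO2 per kilobase in all 6 libraries by a small margin, with means of 9685 ± 1142 and 9226 ± 1135 CPM per kilobase in the double knockout and 10407 ± 2116 and 9816 ± 1886 in the JUN knockout (SD, n = 3 each). MT-ND3 and MT-CYB changed places between libraries, with 1793 ± 174 and 1759 ± 285 CPM per kilobase in the double knockout and 2007 ± 273 and 2014 ± 268 in the JUN knockout. In contrast, the MT-ND6 libraries, at 113 to 234 CPM per kilobase, lay wholly below those of MT-ND5, at 784 to 1565. These are levels in RNA selected by its polyA tail. How fully the selection captured each mRNA was not measured, so the low place of MT-ND6 cannot be read as its level in total RNA.

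**Figure D2:**
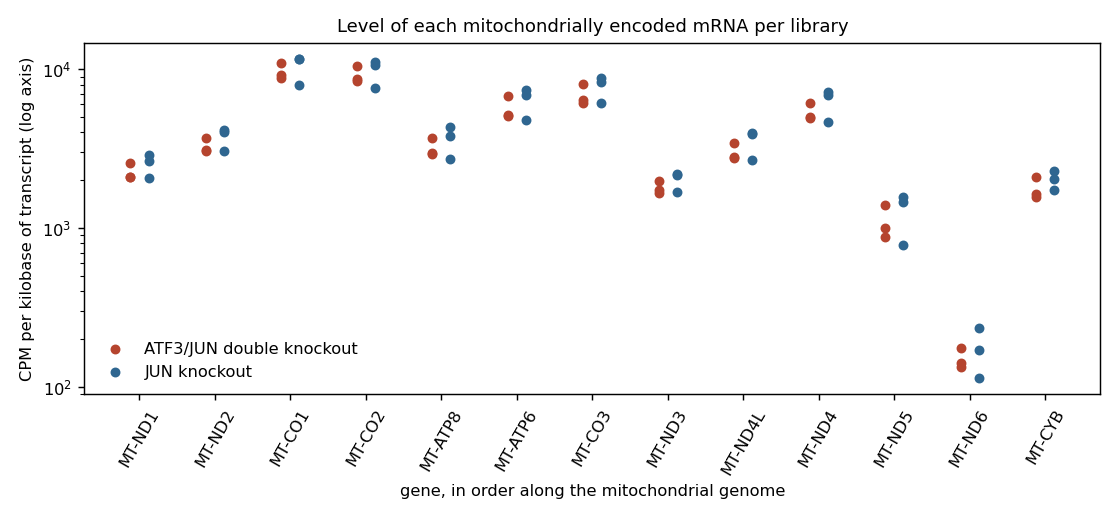
CPM per kilobase of transcript (log axis) of the 13 mitochondrially encoded mRNAs in the order of their position along the mitochondrial genome, with 1 point per library of the ATF3/JUN double knockout (left point column of each gene) and the JUN knockout (right). MT-CO1 is at the top and MT-ND6 at the bottom in all 6 libraries, and the genotypes overlap for each gene.

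The deposited TPM gives another order for the shortest mRNAs. MT-ATP8 is 207 bases long, and its effective length in the files was 9.77 bases, which put it at a mean of 62125 TPM, above MT-CO2 at 12927 TPM and MT-CO1 at 10328 TPM. MT-ND4L, with an effective length of 48.7 bases, stood at 17112 TPM. For these mRNAs the TPM rests on the fragment length assumed in the processing, and the levels per kilobase above were computed from the full length. Over the 13 the median was 6111 TPM, against 190 TPM for the 33 nuclear subunits and 41.6 TPM for TFAM, POLRMT and TWNK.

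The make-up of the mitochondrial mRNA pool varied little between libraries for most genes. MT-CO1 made up 28.8% to 30.8% of it and MT-CO3 10.4% to 11.3%. MT-ND5 was the more variable, with 3.52%, 3.94% and 4.39% in the double knockout, against 3.34%, 4.33% and 4.54% in the JUN knockout. Its share was lowest in JUN knockout 1 and double knockout 1, the libraries with the lowest mitochondrial share of the reads matched to genes. MT-CYB ran differently and had its highest share in JUN knockout 1: 4.09%, 3.84% and 4.15% in the double knockout, against 4.68%, 3.81% and 4.15% in the JUN knockout.

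All 13 mitochondrially encoded genes had a log2 fold change below 0, between −0.24 (MT-ND4L, SE 0.17) and −0.09 (MT-CO2, SE 0.16), with a median of −0.19, against a median of 0.0032 over all genes tested. That median was −0.31 without JUN knockout 1, −0.30 without double knockout 3, −0.12 without double knockout 2 and −0.06 without JUN knockout 3. Without JUN knockout 3, MT-CO2 and MT-ND6 were above 0. None had an unadjusted edgeR p below 0.05, and for each of the 13 the libraries of the genotypes overlapped. In same-numbered pairs the median difference of the 13 on the log2 scale was 0.10 for number 1, −0.39 for number 2 and −0.16 for number 3, so the direction was not shared by all pairs.

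Of complex I, the NADH dehydrogenase, MT-ND1, which lines the channel for ubiquinone, was at 1997, 2018 and 2456 CPM in the double knockout, against 1986, 2536 and 2739 CPM in the JUN knockout. MT-ND2, a proton-pumping subunit, was at 3212, 3201 and 3832 CPM in the double knockout, against 3165, 4183 and 4314 CPM in the JUN knockout. In both, JUN knockout 1 was level with double knockout 1 and 2. MT-ND4, another pumping subunit, was at 6834, 6933 and 8504 CPM in the double knockout, against 6369.9, 9885 and 9524 CPM in the JUN knockout, and its partner MT-ND4L was at 818, 836 and 1013 CPM in the double knockout, against 799.7, 1179 and 1159.9 CPM in the JUN knockout. MT-ND3, a small subunit near the quinone site, was at 599.7, 573 and 688 CPM in the double knockout, against 586, 742 and 756 CPM in the JUN knockout.

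MT-ND5, the distal pumping subunit, had the widest spread of the abundant mitochondrial mRNAs. It was at 1602, 1823 and 2517 CPM in the double knockout, against 1419.9, 2630.4 and 2836 CPM in the JUN knockout (log2 fold change −0.21, SE 0.28). MT-ND6, a membrane subunit, was at 74.3, 69.9 and 92.8 CPM in the double knockout, against 59.5, 90.1 and 123 CPM in the JUN knockout (log2 fold change −0.20, SE 0.25). From its lowest to its highest library MT-ND5 spanned 2.00-fold and MT-ND6 2.06-fold, against a median of 1.46-fold over the 13. For both, the lowest and the highest library were JUN knockout libraries.

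The 11 nuclear subunits of complex I had a median log2 fold change of −0.09, with 8 below 0. NDUFA10, an accessory subunit on chromosome 2 (chr2:239892450-240025402, minus strand), was at 95.1, 95.9 and 106 CPM in the double knockout, against 108, 118 and 117 CPM in the JUN knockout. It was the member with the lowest p (log2 fold change −0.21, SE 0.08, edgeR unadjusted p = 0.0427, adjusted p = 0.854). With an offset for transcript length, which accounts for which transcripts of a gene were used in each library, its log2 fold change was −0.08 (adjusted p = 0.927, edgeR). All its double knockout libraries lay below all its JUN knockout libraries. NDUFB5, an accessory membrane subunit on chromosome 3 (chr3:179604690-179627647, plus strand), was at 78.4, 73.4 and 68.2 CPM in the double knockout, against 68.0, 65.0 and 61.9 CPM in the JUN knockout. At 0.17 (SE 0.09, adjusted p = 0.889 with edgeR), its log2 fold change was the highest among the 49, but it was −0.11 with the same offset. Of its reads, 7.83% fell on transcripts annotated as protein-coding and 57.5% on NDUFB5-202, annotated as a target of nonsense-mediated decay.

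The core subunits of complex I did not stand out. NDUFS1, which carries several of the iron-sulphur clusters, was the steadiest of all, at 139, 141 and 132 CPM in the double knockout, against 131, 137 and 134 CPM in the JUN knockout, a span of 1.08-fold. NDUFS3, a subunit of the peripheral arm, was at 88.0, 79.5 and 95.5 CPM in the double knockout, against 87.6, 93.9 and 97.6 CPM in the JUN knockout. The genotypes overlapped for both. NDUFV1, which binds NADH, is named here after its values were seen, since it was 1 of 5 members without overlap: it was at 183, 166 and 184 CPM in the double knockout, against 185, 197 and 206 CPM in the JUN knockout. Its gap between genotypes, from 184 to 185 CPM, was smaller than the spread within either. The accessory subunits NDUFB8 and NDUFB10 spanned 1.61-fold each, with JUN knockout 1 lowest at 56.3 CPM for NDUFB8 and at 58.7 CPM for NDUFB10.

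Complex II, succinate dehydrogenase, is the complex with no mitochondrial subunit, and its 4 genes had a median span between libraries of 1.19-fold. SDHA, its flavoprotein, was at 148, 149 and 146 CPM in the double knockout, against 133, 148 and 156 CPM in the JUN knockout. SDHD, a membrane anchor, was at 109, 107 and 119.8 CPM in the double knockout, against 113, 129 and 129 CPM in the JUN knockout, and lay below its same-numbered JUN knockout partner in 3 of 3 pairs (log2 fold change −0.14, SE 0.09). SDHC, the other anchor, was higher in 3 of 3 pairs (log2 fold change 0.08, SE 0.08). The anchors thus had opposite signs, neither with a p below 0.05, and the 4 genes were split evenly about 0. Copies of SDHA in the nuclear genome also held reads: SDHAP1 at 18.9 CPM and SDHAP4 at 14.0 CPM, so part of the split between them and SDHA is uncertain.

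In complex III, MT-CYB, the cytochrome b that holds the quinone sites, was at 1862, 1779 and 2379 CPM in the double knockout, against 1986, 2312 and 2597 CPM in the JUN knockout (log2 fold change −0.20, SE 0.14). It was the mitochondrial mRNA that lay below its JUN knockout partner in 3 of 3 pairs, where 15.1% of all genes tested were lower in all 3. The nuclear subunits went both ways. UQCRC2, a core subunit on chromosome 16 (chr16:21952660-21983660, plus strand), was at 209, 214 and 207 CPM in the double knockout, against 169.6, 205 and 194 CPM in the JUN knockout (log2 fold change 0.15, SE 0.09), with no overlap. CYC1, cytochrome c1, was at 201, 187 and 198 CPM in the double knockout, against 202, 239 and 221 CPM in the JUN knockout (log2 fold change −0.18, SE 0.09), again with no overlap. For UQCRC2 and CYC1 the gaps between genotypes, from 205 to 207 CPM and from 201 to 202 CPM, were smaller than the spread within either genotype. UQCRFS1, the Rieske iron-sulphur protein, was at 155, 148 and 166 CPM in the double knockout, against 131, 170.1 and 181 CPM in the JUN knockout. UQCRH, the hinge protein, was at 136, 131 and 159 CPM in the double knockout, against 129.9, 175 and 184 CPM in the JUN knockout. Its near-identical copy UQCRHL held 42.5% as many reads as UQCRH, so the division of reads between them is uncertain.

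Complex IV gave the most even picture across genomes. MT-CO1 was at 13607, 14263 and 16932 CPM in the double knockout, against 12280.3, 17884 and 17977 CPM in the JUN knockout. MT-CO2, which takes electrons from cytochrome c, was at 5793, 5935 and 7203 CPM in the double knockout, against 5236, 7297 and 7609 CPM in the JUN knockout. MT-CO3, a core subunit without redox centres, was at 5052, 4828 and 6329.8 CPM in the double knockout, against 4779.6, 6473 and 6949 CPM in the JUN knockout. For each of these, JUN knockout 1 was the lowest library and JUN knockout 3 the highest. The 7 nuclear subunits had a median log2 fold change of −0.14, with 6 below 0.

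Among those nuclear subunits COX6C, described here after its values were seen, had the widest spread of the 33, at 109, 110.1 and 140.0 CPM in the double knockout, against 93.2, 154 and 174 CPM in the JUN knockout, a span of 1.87-fold (log2 fold change −0.23, SE 0.23). COX7C, a small accessory subunit, was at 152, 147 and 162 CPM in the double knockout, against 125, 170.1 and 163 CPM in the JUN knockout, with a log2 fold change of 0.01 that was −0.01 with an offset for transcript length. COX5B, which binds zinc, was at 100.5, 92.5 and 106 CPM in the double knockout, against 86.9, 116 and 121 CPM in the JUN knockout. NDUFA4 was first assigned to complex I by name and is now placed with complex IV, where it is counted here. It was at 61.0, 58.4 and 73.3 CPM in the double knockout, against 52.2, 78.4 and 81.1 CPM in the JUN knockout, with the libraries in the same order as for MT-CO3.

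In complex V, the ATP synthase, MT-ATP6, part of the proton channel, was at 3496, 3452 and 4619 CPM in the double knockout, against 3253, 4712 and 5043 CPM in the JUN knockout. MT-ATP8 was at 614, 602 and 763 CPM in the double knockout, against 560.1, 791 and 901 CPM in the JUN knockout. A nuclear copy of mitochondrial DNA on chromosome 1, MTATP6P1, held 12.5% as many reads as MT-ATP6, and reads can be shared between them. The 5 nuclear subunits, all with a log2 fold change below 0 (median −0.06), had a median span of 1.17-fold, the smallest among the nuclear subunits of the 5 complexes. ATP5F1C, the central stalk subunit, was at 165, 169 and 177 CPM in the double knockout, against 166, 183 and 184 CPM in the JUN knockout. ATP5PO, of the peripheral stalk, was at 119, 113 and 129 CPM in the double knockout, against 117, 131 and 140.1 CPM in the JUN knockout. For ATP5F1B, the catalytic subunit, the log2 fold change was −0.0010 (SE 0.09), next to 0, and −0.09 with the offset for transcript length.

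The 3 genes for mitochondrial DNA expression lay on the other side of 0, with log2 fold changes of 0.04 to 0.06. TFAM was at 130.4, 127 and 122 CPM in the double knockout, against 113, 124 and 132 CPM in the JUN knockout. POLRMT was at 99.7, 107 and 108 CPM in the double knockout, against 86.0, 109.5 and 106 CPM in the JUN knockout. TWNK was at 48.2, 54.7 and 71.0 CPM in the double knockout, against 40.0, 56.8 and 71.3 CPM in the JUN knockout. The level of TFAM spanned 1.18-fold over the libraries and that of TWNK 1.78-fold, and for each of the 3 genes JUN knockout 1 was the lowest library. Their signs and sizes were not stable. Without that library, the log2 fold changes were −0.02 for TFAM, −0.04 for POLRMT and −0.14 for TWNK, and TWNK was at −0.12 without double knockout 3. With the offset for transcript length they were 0.09 for TFAM, −0.10 for POLRMT and 0.39 for TWNK (adjusted p = 0.897 for TWNK, edgeR).

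**Figure D3:**
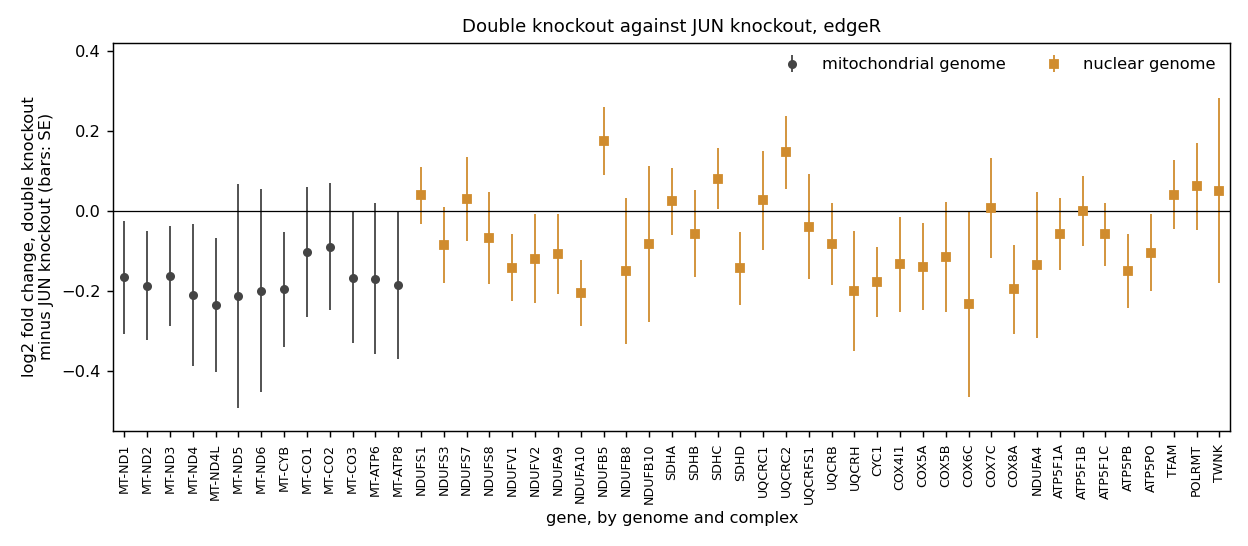
edgeR log2 fold change of each of the 49 genes (vertical axis, double knockout minus JUN knockout, bars ± SE), ordered by genome and complex. All 13 mitochondrially encoded genes (circles) and 25 of the 33 nuclear subunits (squares) lie below 0, TFAM, POLRMT and TWNK lie just above it in this fit, and no gene passes the adjusted threshold.

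The groups did not overlap for 5 of the 49 genes (10.2%), against 12.3% of all genes tested. The double knockout was lower for NDUFV1, NDUFA10 and CYC1, where 5.94% of all genes were lower without overlap, and higher for NDUFB5 and UQCRC2, where 6.31% were higher. All 5 are nuclear, and the share is near that of all genes. For each of the 5, the gap between genotypes was smaller than the spread within either. Within same-numbered pairs, 7 of the 49 genes were lower in the double knockout in all 3 pairs and 3 were higher, and 33.2% of all genes tested had the same direction in all pairs. The median difference of the nuclear subunits was 0.11, −0.25 and −0.11 on the log2 scale in pairs 1, 2 and 3.

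The main pattern ran across libraries of both genotypes. In 38 of the 49 genes (77.6%), the 3 lowest libraries were double knockout 1, double knockout 2 and JUN knockout 1, against 18.6% of all genes tested. This was so for 13 of 13 mitochondrially encoded genes, 24 of 33 nuclear subunits (72.7%) and 1 of the 3 expression genes. The count of this set of libraries was not planned in advance, and the share of all genes was not matched for transcript length. JUN knockout 1 was the single lowest library for 32 of the 49, against 24.5% of all genes. On the log2 scale, the median deviation of the 13 mitochondrial genes from the mean of the 6 libraries was −0.18, −0.19 and 0.14 in the double knockout, against −0.30, 0.19 and 0.28 in the JUN knockout. For the nuclear subunits it was −0.04, −0.14 and 0.06 in the double knockout, against −0.13, 0.12 and 0.14 in the JUN knockout. The genomes thus had the same sign in each library, with a larger size for the mitochondrial genes. The other 11 genes included NDUFB5 and UQCRC2, whose 3 lowest libraries were the JUN knockout ones, and NDUFV1, NDUFA10 and CYC1, whose 3 lowest were the double knockout ones.

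**Figure D4:**
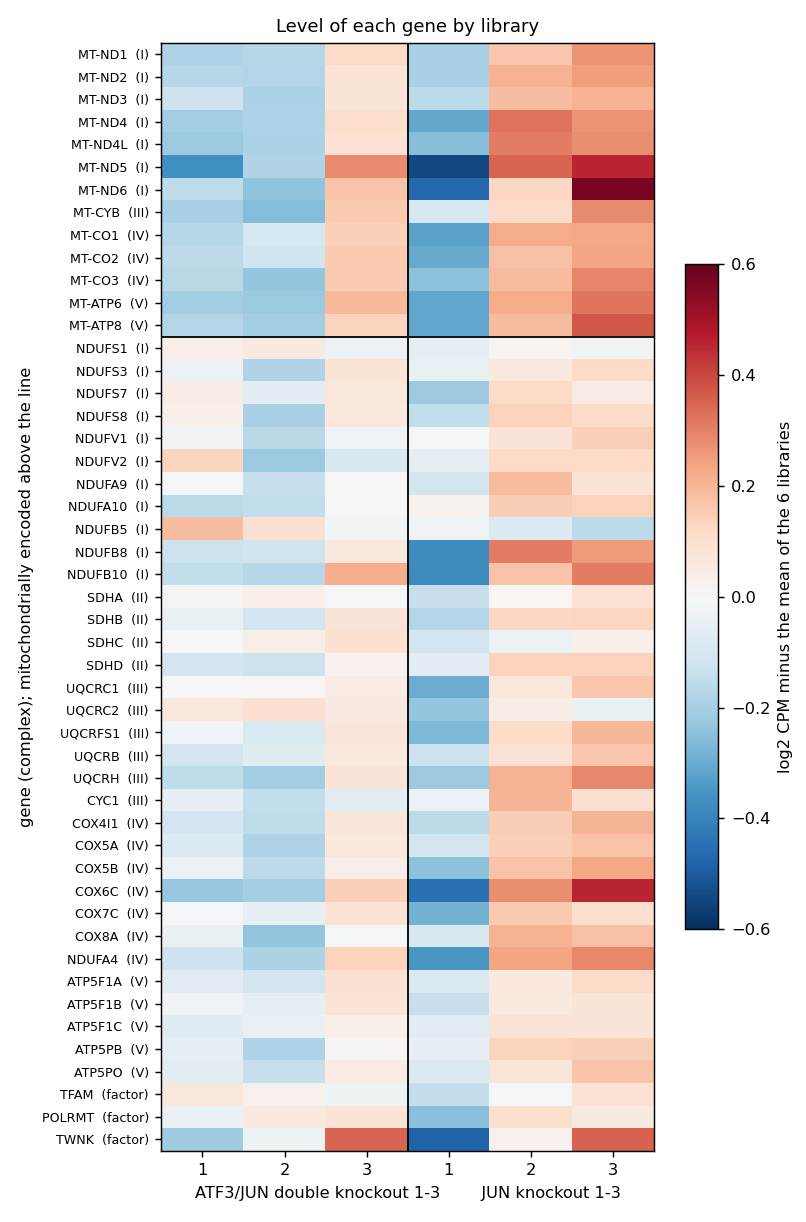
Log2 CPM minus the mean of the 6 libraries (colour) for the 49 genes (lines, complex in brackets), with mitochondrially encoded genes above the horizontal line and libraries as columns, ATF3/JUN double knockout 1 to 3 left of JUN knockout 1 to 3. Double knockout 1 and 2 and JUN knockout 1 are blue, that is below the mean, in nearly every mitochondrial gene and in most nuclear subunits, while double knockout 3 and JUN knockout 2 and 3 are mostly red there.

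Many respiratory chain mRNAs are short, and transcript length moved with the same split of libraries across the whole table. Among nuclear protein-coding genes, the 106 with an effective length under 300 bases had a median log2 deviation of −0.06, −0.14 and 0.10 in the double knockout, against −0.17, 0.12 and 0.17 in the JUN knockout. The 771 genes over 5000 bases had the opposite signs: 0.03, 0.11 and −0.02 in the double knockout, against 0.08, −0.08 and −0.10 in the JUN knockout. The 6 nuclear subunits under 300 bases were at −0.10, −0.20 and 0.08 in the double knockout, against −0.25, 0.21 and 0.23 in the JUN knockout, the same signs as other short genes. The 9 subunits of 300 to 500 bases and the 5 of 500 to 800 bases had the sign of their class in every library. The 8 of 800 to 1200 bases did so except in double knockout 1, at −0.02 against 0.0002 for the class. Among genes over 1200 bases the signs did not match throughout. The 3 subunits of 1200 to 2000 bases were at −0.07, −0.11 and −0.0005 in the double knockout. In the JUN knockout they were at −0.09, 0.06 and 0.12. All genes of that class were at 0.0061, −0.02 and 0.0016, against −0.03, 0.04 and 0.03. The 1 subunit of 2000 to 3000 bases was at −0.02, −0.09 and 0.07, against −0.27, 0.11 and 0.20, where its class lay between −0.0074 and 0.02. The summed eosinophil markers were also lowest in JUN knockout 1. The summed neutrophil markers were lowest there too, at 68.5 CPM, but highest in double knockout 1, at 136 CPM. The part of length or of the state of the cells in the respiratory chain pattern was not tested.

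**Figure D5:**
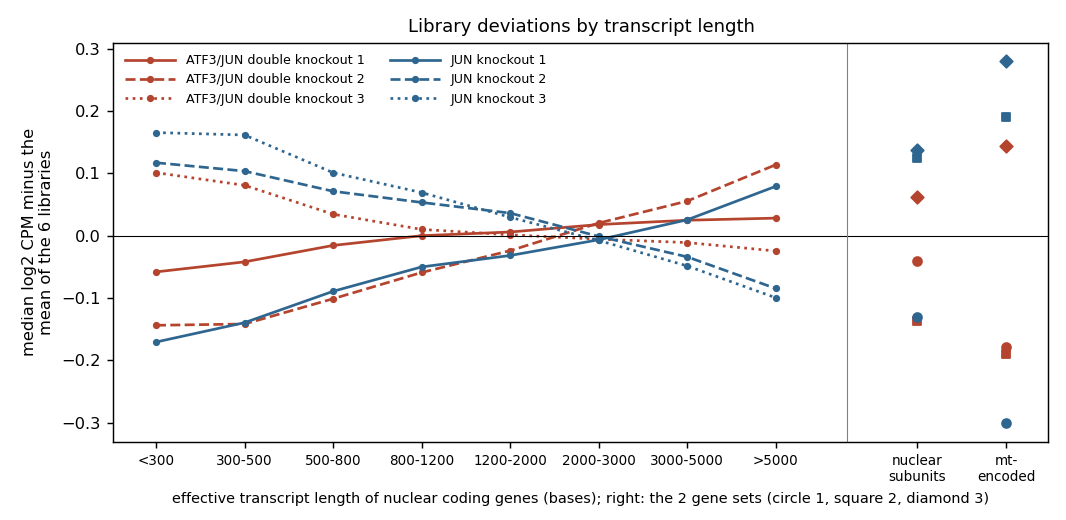
Median log2 CPM minus the mean of the 6 libraries (vertical axis) for nuclear protein-coding genes in classes of effective transcript length (lines, 1 per library), and, at the right, for the 33 nuclear subunits and the 13 mitochondrially encoded genes. Short genes are low and long genes high in double knockout 1 and 2 and JUN knockout 1, the reverse holds in the other libraries, and the mitochondrially encoded genes lie further from 0 than any length class.

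The genes whose log2 levels most resembled the mean log2 level of the 13 mitochondrially encoded genes, among 8896 genes with at least 10 CPM, were U2AF2, HDGF, COX6B1, ITGAE and RAVER1, with Pearson's r of 0.998, 0.998, 0.998, 0.998 and 0.997 over the 6 libraries. U2AF2, a splicing factor, was at 444, 438 and 563 CPM in the double knockout, against 423, 599 and 645 CPM in the JUN knockout. COX6B1, a nuclear subunit of complex IV outside the list, was at 122, 122 and 146 CPM in the double knockout, against 116, 152 and 156 CPM in the JUN knockout. With 6 libraries and 8896 candidates, values this high are to be read as a description. Of the 36 nuclear members, UQCRB (0.993), COX4I1 (0.992) and COX6C (0.990) were the most alike, and NDUFB5 (−0.75) and NDUFS1 (−0.19) were the ones with a negative value.

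Several nuclear members had most of their reads on transcripts not annotated as protein-coding. The share of reads on protein-coding transcripts had a median of 86.6% over the 33 nuclear subunits. It was 2.15% for NDUFS7, whose reads fell mostly (63.3%) on a transcript annotated as a target of nonsense-mediated decay. In NDUFS3 it was 10.5%, with the most reads on NDUFS3-202, annotated as a retained intron, and in UQCRB 16.1%, with 78.6% on UQCRB-203, a decay target. Such transcripts can overlap the coding ones over much of their length, and the split among them is the estimate of the deposited processing. The levels given here are sums over all transcripts of a gene.

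The promoters were searched for short motifs known from respiratory genes and for those of the edited factors, over 250 bases before and 50 after the start of each gene (RefSeq, GRCh38.p14, 28 of the 36 nuclear members matched, both strands). The palindromic motif of NRF1, a nuclear regulator of respiratory genes, was in 9 of 28 (32.1%), against 5.78% of all 35116 promoters. The ETS motif CCGGAAG, which GABPA recognises, was in 9 of 28 (32.1%), against 10.3%, and the YY1 motif AAGATGGC was in 6 of 28 (21.4%), against 2.89%. Of the motifs of the family of JUN and ATF3, the AP-1 motif TGACTCA was in 0 of 28, against 4.95%, and the CRE motif TGACGTCA was in 2 of 28 (7.14%), against 1.85%. The end of the ETS motif and the start of the YY1 motif can share the letters AAG, and a stretch that held both was counted for each. The shares over all promoters counted every entry, while each member counted once. They were not matched for gene type, expression or base composition. A match describes the sequence, not binding. The CRE matches, and the NRF1 matches of the genes for mitochondrial DNA expression, are shown with the motif in capitals and 10 bases on each side.
NDUFA10 CRE, minus strand, chr2:240025373-240025400: accccggccgTGACGTCAcggcagcgcg
SDHB CRE, minus strand, chr1:17054019-17054046: ggggtggggcTGACGTCAggagccaaga
TFAM NRF1, plus strand, chr10:58385337-58385366: acgctctcccGCGCCTGCGCcaattccgcc
POLRMT NRF1, minus strand, chr19:633542-633571: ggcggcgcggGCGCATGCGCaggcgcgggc
SDHB is the iron-sulphur subunit of complex II. Whether any of these motifs bears on the levels was not tested.

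The rest of the respiratory machinery outside the 49 genes was counted in the same fit, and edgeR and DESeq2 called none in any of its lists. Of 26 other subunits of complex I, 25 had a log2 fold change below 0 (median −0.12), with 0 at an unadjusted p below 0.05. Of 22 other subunits of complexes III, IV and V, 20 were below 0 (median −0.12). The lowest p among them was that of ATP5IF1, the inhibitor of the ATP synthase, at 50.5, 46.5 and 53.8 CPM in the double knockout, against 58.3, 66.2 and 68.6 CPM in the JUN knockout (log2 fold change −0.36, SE 0.10, edgeR adjusted p = 0.789). Its libraries did not overlap, and this was the single case in that list (4.55%, against 12.3% of all genes tested). Of 48 assembly factors, 34 were below 0 (median −0.08), and of 33 genes for maintenance, transcription and stability of mitochondrial RNA and DNA, 28 (median −0.08).

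The mitochondrial ribosome, which translates the 13 mRNAs, had 40 of 48 large subunit genes below 0 (median −0.08) and 24 of 32 small subunit genes (median −0.05). MRPS16, with the lowest p in the small subunit, went the other way, at 109, 103 and 109 CPM in the double knockout, against 82.7, 95.3 and 98.6 CPM in the JUN knockout (log2 fold change 0.22, SE 0.09, edgeR adjusted p = 0.859). Of 17 genes of the citric acid cycle, 11 were below 0 (median −0.03). Of 13 regulators of mitochondrial biogenesis, 5 were below 0 (median 0.0079). These lists share the libraries of the 49 genes, and no test of a list was made.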

How the data were processed

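Polyadenylated RNA of 3 ATF3/JUN double knockout and 3 JUN knockout EoL-1 libraries was made into libraries with a stranded Illumina mRNA kit, per the labels' protocols. Per the submitters' processing notes, the authors ran Salmon 1.6.0, with FastQC 0.11.9 for read quality, and the build was hg38. The sources used here give neither the annotation release nor the use of strand. The deposited files hold, per the file headers, a length, an effective length, an estimated count and a TPM value for each of 177456 transcripts. Salmon shares out reads that fit several transcripts, so values of overlapping genes and near-identical copies depend on that estimate.

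Transcripts were joined to GENCODE release 29 by identifier, with 94.1% matched in 35052 genes, and the unmatched ones carried 3.58% to 3.71% of reads. Gene values are the sums of the estimated counts of a gene's transcripts, rounded to integers. The test was edgeR 4.0.16 (R 4.3.3): filterByExpr, TMM, robust quasi-likelihood F test, two-sided, group as the single term, Benjamini-Hochberg adjustment at 0.05 over all 12954 genes kept. It was tested on simulated counts with changes larger than any seen in the listed genes, so this does not bear on changes of their size. CPM is after TMM scaling. A pseudocount of 0.5 CPM was added before taking log2 for the median deviations and the resemblance to the mitochondrially encoded genes. Pair differences and the colour map of single genes used none. Shares and ratios over several genes are given per library with no p, and shares leave out the unmatched reads. Mitochondrial levels per kilobase use the annotated length.

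Values in every library are given for the 13 mitochondrially encoded genes, the nuclear member with the highest and the one with the lowest mean TPM in each complex, TFAM, POLRMT, TWNK, NDUFA4, and the 2 lowest p-values in each direction in each genome. SDHB is named for its promoter motif, outside this rule, and other genes outside it are marked or are given by single values. The members and lists were chosen with earlier results of these data known. Of the 249 entries of the other lists, 239 were tested, 8 did not pass the filter on low counts and 2 assembly factors are not used here.

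Same-numbered libraries of both genotypes carry the same clone code in the names of the deposited files, and the numbers were taken as pairing on that ground, which the labels do not state. The deviations of same-numbered libraries from their genotype means correlated across genes at 0.33, 0.096 and 0.41 for numbers 1, 2 and 3. Double knockout 2 correlated slightly more with JUN knockout 1 (0.11) than with its partner, so the values alone do not bear out number 2. A fit blocked on the replicate number was an alternative. The others were RLE scaling, scaling without the mitochondrially encoded genes, other filters on low counts, DESeq2 1.42.0, limma-voom (limma 3.58.1), an offset for transcript length, other denominators for the shares, and leaving out each library or each same-numbered pair.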

Additional observations from a re-analysis of the deposited data

How the results depend on the processing

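edgeR with TMM called 0 of 12954 genes (753 at an unadjusted p below 0.05), against 1 with no low-count filter, 71 with DESeq2, 4 with limma-voom, and 0 to 1 when libraries were left out. It called 0 of the 49 members under each of these settings. Over 833 values of the 49 members, the lowest adjusted p was 0.44; 793 kept their direction and 40, of 17 members, did not, 34 of these with a library left out. An offset for transcript length moved 17 of the 49, 0 of them mitochondrially encoded, by over 1.5 times or across 0: NDUFB5 was at −0.11, COX7C at −0.012 and POLRMT at −0.10, TWNK at 0.39, NDUFS3 at −0.25, NDUFV1 at −0.25, NDUFA4 at −0.25, NDUFA10 at −0.08 and ATP5PO at −0.03. ATP5F1B, next to 0, was at 0.00044 with no low-count filter, 0.0013 with limma-voom and 0.0010 with the replicate block. With libraries left out, log2 fold changes ranged from −0.43 to 0.080 for MT-ND6, −0.26 to 0.0042 for MT-CO1, −0.24 to 0.011 for MT-CO2, −0.039 to 0.079 for SDHA, −0.17 to 0.055 for UQCRFS1, −0.12 to 0.11 for COX7C, −0.31 to 0.0010 for NDUFA4, −0.042 to 0.12 for TFAM, −0.040 to 0.12 for POLRMT, −0.14 to 0.26 for TWNK, −0.077 to 0.13 for NDUFS7, −0.18 to 0.052 for NDUFS8, −0.26 to 0.058 for NDUFB10, −0.15 to 0.024 for SDHB, −0.10 to 0.12 for UQCRC1 and −0.067 to 0.047 for ATP5F1B. The cause was not tested.

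The median log2 fold change ranged from −0.31 to −0.06 for the mitochondrially encoded genes and from −0.18 to −0.02 for the nuclear subunits when libraries were left out. The difference in mitochondrial share, −0.559 percentage points of reads, ranged from −1.14 to −0.166 and was −1.61 as a share of TPM, in which the effective length of MT-ATP8 weighs heavily. The nuclear share difference ranged from −0.0540 to −0.0071 percentage points and the log2 ratio of the genomes from −0.17 to −0.02. With the replicate number as a block, 0 genes and 0 members were called, the medians were −0.16 and −0.09, and MT-CYB and NDUFA10 had an unadjusted p below 0.05 (0.0473 and 0.0349; lowest adjusted p of a member 0.489); it changed no call. Estimated reads of a member in a library were at least 1088, so counting depth limits few of these values, while 3 libraries a genotype limit all of them.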
